A study of Mus musculus with 6 samples.

Results

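The well-counted long noncoding RNAs of YAMC cells are 47 genes of the 54532 listed in the deposited count files. They were selected on abundance, as genes with the biotype lincRNA whose raw counts summed to at least 1000 over all 6 libraries, so their abundance is a description and not a finding. The files list 5559 lincRNA genes, of which 1596 had at least 1 count, and no gene has the biotype lncRNA. YAMC is a line derived from young adult mouse colonic epithelium that carries a thermolabile (tsA58) SV40 large T antigen under an interferon-inducible H-2Kb promoter. All 6 libraries came from wild-type YAMC cells kept at 33 °C in medium containing interferon-gamma. For 3 of them the cells were exposed for 6 h to 20 µg/ml of 2'-fucosyllactose (2'-FL), a fucosylated sugar of human milk, and the other 3 are untreated controls. The titles give no time for the controls, and no label says that the replicates were separate cultures, so the p-values refer to the spread of these libraries alone, which may be technical.

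Long noncoding RNAs are transcribed and often spliced like mRNAs but are not thought to act through a long protein. Some stay in the nucleus and organise chromatin or nuclear bodies, as Xist does on the inactive X chromosome and Neat1 in paraspeckles. Others act in the cytoplasm, and the snoRNA host genes carry small nucleolar RNAs in their introns while their spliced transcripts are often degraded.

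Library totals ran from 19978583 to 25251187 counts. On the first 2 principal components of all tested genes, which held 28.0% and 21.7% of the variance, 2'-FL replicate 2 and control replicate 1 lay farthest from the centre. Of 20 markers of colonic epithelium, 16 averaged under 1 CPM (counts scaled to a common library total), and Cdx1, Cdx2, Slc26a3, Car1, Aqp8 and Tff3 were listed at 0 in every library. Keratins were present, with Krt8 at 307 ± 47.3 CPM and Krt19 at 391.8 ± 48.9 CPM (SD, n = 6). By edgeR no marker passed, and the tested markers went both ways. Of 5 tested markers of colonic epithelium 2 were lower and 3 higher after 2'-FL. At an unadjusted p under 0.05, 0 of them were lower and 2 higher. Among 11 tested fibroblast markers 5 were lower and 6 higher, with 1 lower and 2 higher at that p. The higher ones at that p were Krt8, Krt19, Thy1 and Col3a1, and the 1 lower fibroblast marker is not named here. Krt8 and Krt19 are also on the mesothelial list, where 2 of 7 tested markers were lower and 5 higher. At that p, 0 of those 7 were lower and 2 higher. The edgeR log2 fold changes were 0.25 ± 0.11 for Krt8 (unadjusted p = 0.0343, adjusted p = 0.592), 0.25 ± 0.09 for Krt19 (unadjusted p = 0.0126, adjusted p = 0.503), 0.59 ± 0.16 for the fibroblast marker Thy1 (unadjusted p = 0.00284, adjusted p = 0.372) and 0.20 ± 0.07 for Col3a1 (unadjusted p = 0.0112, adjusted p = 0.502). The mesothelial markers Msln, Upk3b and Wt1 averaged 787, 1790 and 366 CPM. The summed level of the 7 mesothelial markers, Krt8 and Krt19 included, lay between 4975 and 5274 CPM with 2'-FL. In controls it lay between 4703 and 5091 CPM. Summed over 12 fibroblast markers, the level was 13689 to 15005 CPM after 2'-FL against 13673 to 14513 CPM in the controls, with Lum at 0. Ptprc, the pan-leukocyte marker, stayed at or below 0.129 CPM, and the summed levels were 23.8 to 29.1 CPM after 2'-FL against 20.8 to 29.1 CPM in the controls for 8 leukocyte markers, and 15.5 to 19.1 CPM and 13.5 to 19.8 CPM for 6 endothelial ones. The part of cell type in the results below was not tested. In bulk RNA, fewer cells of a type and less RNA per cell cannot be told apart.

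The promoters of Xist and Malat1 are shown because these members had the most counts. Each runs from 250 bases before to 50 bases after the RefSeq start on GRCm38.p6, and was taken from RefSeq, whose table held 29 promoters for 26 of the 47 genes. The Xist window lies on the minus strand at chrX:103483184-103483483. Its capitals mark a TATA motif (TATAAA, here on the other strand) whose first base is 115 bases before the start and a CCAAT motif 89 bases before it. Over all 32851 promoters of the table, read on both strands, 13.6% held TATAAA and 37.4% held CCAAT.
Xist promoter: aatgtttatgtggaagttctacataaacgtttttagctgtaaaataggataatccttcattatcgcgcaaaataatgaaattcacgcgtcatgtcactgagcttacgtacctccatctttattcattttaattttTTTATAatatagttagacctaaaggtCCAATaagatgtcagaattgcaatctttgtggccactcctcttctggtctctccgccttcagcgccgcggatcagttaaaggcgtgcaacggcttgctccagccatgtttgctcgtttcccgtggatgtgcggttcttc
The Malat1 window lies on the minus strand at chr19:5802623-5802922. It held none of the 8 motifs searched, which besides both above were CACGTG (E-box), GGGCGG (GC box), GAAANNGAA (interferon response element), TTCNNNGAA (STAT), TGANTCA (AP-1) and CCGGAAG (ETS).
Malat1 promoter: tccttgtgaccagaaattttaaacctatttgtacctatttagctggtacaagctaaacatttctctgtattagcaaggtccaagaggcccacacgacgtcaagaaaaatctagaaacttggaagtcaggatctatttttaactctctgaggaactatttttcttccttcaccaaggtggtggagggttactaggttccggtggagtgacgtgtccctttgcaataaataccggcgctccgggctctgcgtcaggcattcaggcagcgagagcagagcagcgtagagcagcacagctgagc
Since the cells were grown in interferon-gamma, the interferon and STAT motifs were counted in every member's window. GAAANNGAA was found in 1 of 29 member promoters, that of 1810058I24Rik, against 8.6% of all promoters. TTCNNNGAA was found in 3 of 29 (1810058I24Rik, Dubr and Gm13293), against 8.3%.

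Snhg12 and Snhg18, both members, and Gas5, Snhg1 and Snhg8 are shown at their starts because snoRNA hosts are known for transcripts that begin with a run of pyrimidines, the feature of the 5′ terminal oligopyrimidine genes. Each line holds 25 bases before and 25 bases from the RefSeq start (GRCm38.p6), and capitals mark the unbroken pyrimidines counted from the first transcribed base.
Snhg12 (chr4:132308653-132308702, plus strand): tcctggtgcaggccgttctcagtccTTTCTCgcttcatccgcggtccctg
Snhg18 (chr15:32244638-32244687, minus strand): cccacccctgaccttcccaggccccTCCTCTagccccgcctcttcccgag
Gas5 (chr1:161035141-161035190, plus strand): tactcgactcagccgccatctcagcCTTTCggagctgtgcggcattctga
Snhg1 (chr19:8723462-8723511, plus strand): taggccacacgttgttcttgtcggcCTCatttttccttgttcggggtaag
Snhg8 (chr3:123508312-123508361, minus strand): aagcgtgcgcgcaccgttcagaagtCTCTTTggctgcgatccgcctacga
The run was 6 bases in Snhg12, Snhg18 and Snhg8, and also in Snhg17 (not shown), 5 in Gas5 and 3 in Snhg1. Gas5 and Snhg17 have 2 RefSeq starts each, and the start with the longest run was taken. The shares over all promoters below involve no such choice. A run of at least 5 was present in 4.44% of all promoters, one of at least 6 in 2.93% and one of at least 3 in 10.7%. The starts of Snhg5, Snhg15, Zfas1 and Snhg3 in the table do not begin with a pyrimidine.

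Xist, the RNA that coats and silences one X chromosome in female cells, took the most counts of all members. It is transcribed from the minus strand of chromosome X (103460366 to 103483254, GRCm38, as for all positions here). The 2'-FL libraries held 697, 452 and 731 CPM in replicates 1 to 3 and the controls 1028, 856 and 848 CPM. Every 2'-FL library lay below every control, and 2'-FL replicate 2 was the lowest. With 3 libraries each, 626 ± 152 CPM (mean ± SD) stood against 911 ± 102 CPM, giving a log2 fold change of -0.53 ± 0.13 (SE). Signed values in parentheses with an error are log2 fold changes ± SE, 2'-FL minus control, from the edgeR fit. The Xist difference did not pass by edgeR's quasi-likelihood test (unadjusted p = 0.00123, adjusted p = 0.295 over 14129 genes). Without 2'-FL replicate 2 the log2 fold change was -0.35, and without that library and control replicate 1 it was -0.25. The antisense gene Tsix, which overlaps 11.0% of the Xist exons on the other strand, was listed at 0 in all libraries, where 3 counts over the 6 libraries would be 0.0231 CPM.

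By edgeR, no noncoding gene listed with X inactivation passed. All 5 tested genes of that list, Xist included, had negative log2 fold changes, with a median of -0.14, but Jpx and Firre were positive under at least 1 alternative. Ftx, an activator of Xist that hosts microRNAs, held 3.60, 2.97 and 3.80 CPM after 2'-FL, compared with 3.95, 5.22 and 6.52 CPM in controls, without overlap (log2 fold change -0.59 ± 0.22, edgeR unadjusted p = 0.0178, adjusted p = 0.531). The log2 fold change was -0.14 ± 0.50 for Jpx and -0.12 ± 0.15 for Firre, which averaged 22.9 CPM over all libraries. The 437 other X-linked genes tested had a median log2 fold change of -0.0030, against -0.0056 for 13657 autosomal genes. Among 8 proteins that bind Xist RNA, 5 were lower and 3 higher, none passed, and the smallest p belonged to Rbm15 (-0.13 ± 0.07, unadjusted p = 0.0877) and Spen (-0.19 ± 0.12, unadjusted p = 0.127), both needed for Xist silencing.

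Malat1 and Neat1, the RNAs of the nuclear speckle and the paraspeckle, lie beside each other on the minus strand of chromosome 19 (5795690 to 5802672 and 5824708 to 5845478). Neat1 held 43.8, 33.4 and 48.8 CPM in 2'-FL replicates 1 to 3 and 61.8, 56.4 and 57.7 CPM in control replicates 1 to 3. Its groups did not overlap, and the controls lay close together. The means were 42.0 ± 7.82 and 58.6 ± 2.79 CPM (± SD over 3 libraries), giving a log2 fold change of -0.48 ± 0.11 (SE), with the smallest p among the members (edgeR unadjusted p = 0.000484, adjusted p = 0.203). The DESeq2 Wald test called it, at an adjusted p of 0.0185. Over all alternatives the adjusted p ran from 5.04e-05 to 0.787. The lowest came from edgeR without a filter on low counts, a fit that gave no weight to each gene's own spread. Outside those calls the lowest was 0.129, by edgeR without 2'-FL replicate 1. The Neat1 log2 fold change stayed negative in all alternatives, between -0.59 and -0.30.

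Malat1 varied most among libraries of one group. It held 319, 369 and 521 CPM in the 2'-FL libraries against 806, 659.9 and 343 CPM in the controls. Control replicate 3 lay among the 2'-FL libraries, so the groups overlapped. The log2 fold change was -0.58 ± 0.23 (SE) with an unadjusted p of 0.0233 and an adjusted p of 0.562 by edgeR. It was -0.30 without control replicate 1 and -0.85 without control replicate 3. The 18S ribosomal RNA gene CT010467.1 measures ribosomal RNA left in a library. It stood at 629.9, 797 and 591 CPM after 2'-FL, compared with 1151, 843 and 579 CPM in controls. Among the controls its highest and lowest libraries were those of Malat1. Among the 2'-FL libraries the orders differed, with Malat1 highest in replicate 3, where CT010467.1 was lowest. The part of ribosomal RNA in the Malat1 values was not tested.

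No gene of a paraspeckle protein passed the test. Of 20 paraspeckle protein genes, all tested, 5 were lower and 15 higher, with a median log2 fold change of 0.031 and none called. The smallest p belonged to Nudt21 (0.11 ± 0.06, unadjusted p = 0.0956). Frmd8, the nearest tested coding gene to Neat1, had a log2 fold change of 0.05 ± 0.06.

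**Figure D1:**
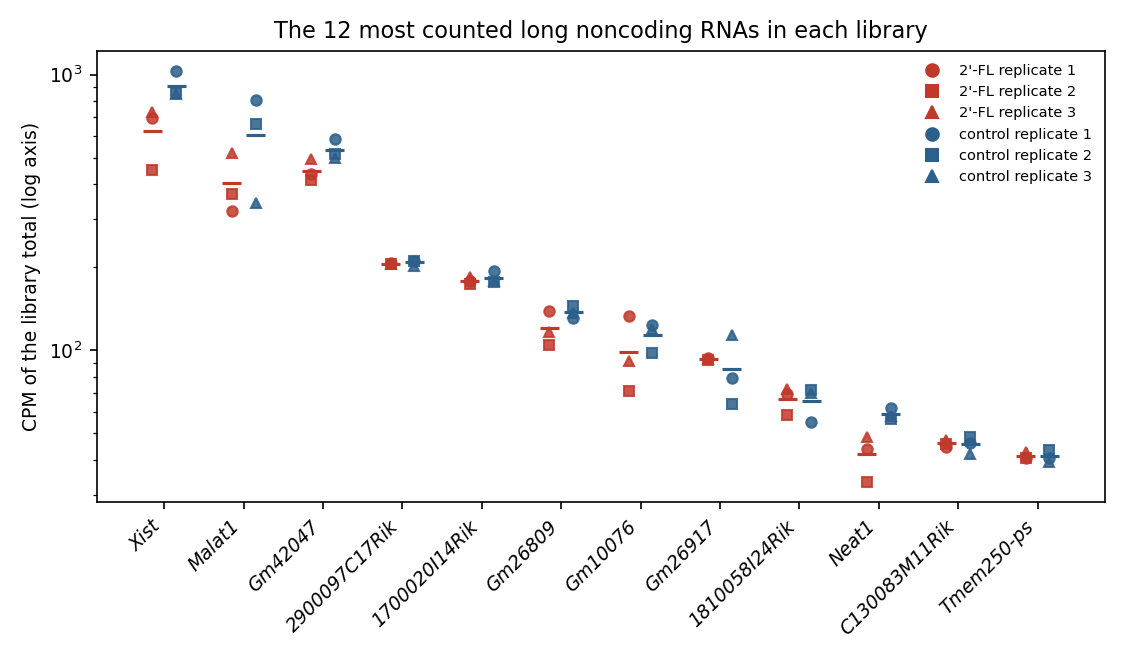
CPM of the library total (log axis) of the 12 members with the most counts, with 1 point per library, red for 2'-FL and blue for control, and a bar at each group mean. The 2'-FL points of Xist (452 to 731 CPM) and Neat1 (33.4 to 48.8 CPM) lie below all control points, while control replicate 3 of Malat1 (343 CPM) lies among the 2'-FL points.

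Among the most counted members, 2900097C17Rik, 1700020I14Rik, C130083M11Rik and Tmem250-ps varied little, with coefficients of variation (CV) within groups of 2.15% to 5.40%. 2900097C17Rik, the mouse Norad, which binds Pumilio proteins in the cytoplasm and guards chromosome number, held 207, 206 and 206 CPM in 2'-FL replicates 1 to 3 and 212, 211 and 203 CPM in control replicates 1 to 3. Its log2 fold change was -0.01 ± 0.06, and its CV was the smallest of all members. 1700020I14Rik, known as Cyrano, which directs the decay of a microRNA, held 174 to 185 CPM after 2'-FL against 177 to 194 CPM in the controls (-0.02 ± 0.07). C130083M11Rik at 45.8 ± 2.23 CPM and Tmem250-ps at 41.4 ± 1.55 CPM (SD, n = 6) had log2 fold changes of 0.02 ± 0.08 and 0.01 ± 0.08. Less even was 1810058I24Rik, with a CV of 11.6%, which despite its biotype encodes a small mitochondrial membrane protein. It held 58.2 to 72.4 CPM after 2'-FL against 55.2 to 72.1 CPM in the controls (0.03 ± 0.10).

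Per kilobase of the length given in the files, the order of the members differed from that by counts. The highest was Gm10076 at 277 CPM per kilobase, then Gm42047 at 86.9, Malat1 at 72.0, Gm26809 at 43.3, Xist at 42.8 and 2900097C17Rik at 42.2. Those last 3 differ by less than the SD over libraries of Gm26809 or of Xist, while 2900097C17Rik varied little. They were followed by Gm26917 at 26.9, 1810058I24Rik at 23.8, C130083M11Rik at 22.1, 1700020I14Rik at 21.8, Tmem250-ps at 16.7 and Gm13056 at 15.9 CPM per kilobase. Neat1, with an annotated length of 20771 bases, came to 2.42 CPM per kilobase. How many of its reads came from its short or long form was not analysed here.

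Some of these levels may hold reads of other genes, since the members' exons share sequence with genes elsewhere. Of the 47, 6 shared at least 10% of their 50-base windows with a gene at another position and 21 shared none. Gm10076 (chromosome 14, 105681828 to 105682211, plus strand) is a single exon of 384 bases that aligned to a transcript of Rpl41, a ribosomal protein gene, with 3 mismatches (99.2% identity). Its first open reading frame, at chr14:105681869-105681946 on GRCm38, is shown because it is found unchanged in 3 of 4 coding transcripts of Rpl41. Capitals mark its start and stop codons.
Gm10076 reading frame: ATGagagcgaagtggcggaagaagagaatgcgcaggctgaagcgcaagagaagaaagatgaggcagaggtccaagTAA
Gm10076 held 134, 71.2 and 91.4 CPM in 2'-FL replicates 1 to 3 and 123, 98.3 and 119.9 CPM in control replicates 1 to 3. Rpl41 held 430.1, 265 and 389.5 CPM in the 2'-FL libraries against 389.3, 385 and 371 CPM in the controls. Both were lowest in 2'-FL replicate 2. The Gm10076 log2 fold change was -0.20 ± 0.16 (edgeR adjusted p = 0.8), and reads of the pair cannot be told apart with certainty.

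Gm42047 (chromosome 8, 121833247 to 121841178, plus strand) shared 64.8% of its windows with 10 other genes, and its span overlaps that of the coding gene Gm20388 on the same strand. It held 436, 414 and 494 CPM after 2'-FL, compared with 586, 514 and 500.0 CPM in controls. The groups lay close together but did not overlap, with a log2 fold change of -0.24 ± 0.08 and an edgeR adjusted p of 0.496 (unadjusted p = 0.00923). Without 2'-FL replicate 2 and control replicate 1 it was -0.12. Gm7292, a single exon on chromosome 6, and 2900097C17Rik shared windows with each other, amounting to 77.5% of the first and 39.5% of the second. Gm7292 held 12.6, 9.07 and 12.3 CPM in 2'-FL replicates 1 to 3 and 9.65, 9.26 and 9.70 CPM in control replicates 1 to 3. This was the largest positive value among the members (log2 fold change 0.25 ± 0.14, edgeR adjusted p = 0.712), and 2'-FL replicate 2 lay among the controls with TMM scaling.

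Gm26917 (chromosome 17, 39843013 to 39846341, plus strand) lies beside the 18S ribosomal RNA gene CT010467.1 of the other strand, with 11 bases between them. It held 93.6, 92.2 and 93.4 CPM in the 2'-FL libraries against 79.6, 63.9 and 114 CPM in the controls. The 2'-FL libraries lay close together and within the range of the controls (log2 fold change 0.13 ± 0.14). Among the controls Gm26917 was highest in replicate 3, where CT010467.1 was lowest. Strand use in counting is not given, and the part of ribosomal RNA reads in Gm26917 was not tested.

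By edgeR with adjustment over all genes, 0 of 14129 genes passed (0% called), and so none of the 47 members. By DESeq2, 37 of 11389 genes with an adjusted p passed (0.325%), of which Neat1 was 1 of the 47. Without a filter on low counts edgeR called 158 of 26207 genes (0.603%), among them Malat1, Xist, Neat1 and AI838599. That fit's prior degrees of freedom were infinite, which gives no weight to the spread of each gene itself. At an unadjusted p under 0.05 by edgeR, 10 of the 47 members were lower with 2'-FL (21.3%), against 4.54% of all genes tested. None of the 47 was higher at that level, against 3.36%. In 10 members (21.3%) all 2'-FL libraries lay below all controls on CPM with scaling factors by TMM (trimmed mean of M-values), against 6.31% of all genes, and in 0 members above, against 6.74%. Without 2'-FL replicate 2, 4 of the 47 members (8.51%) were lower at that p, against 3.12% of all genes, and 10 (21.3%) did not overlap, against 9.78%. Without that library and control replicate 1 the members were 3 (6.38%), against 2.76%, and 12 (25.5%), against 16.8%.

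The median log2 fold change of the 47 members was -0.092, with 32 lower (68.1%), beside -0.0056 and 51.6% for all genes tested. For 9778 protein-coding genes of the same CPM range it was 0.0035. The members' median was -0.030 without 2'-FL replicate 2, with 29 lower, and -0.019 without that library and control replicate 1, with 26 lower. Among noncoding genes outside the selection it was -0.14 for 290 tested lincRNA genes below 1000 counts and -0.12 for 50 noncoding genes of other biotypes with at least 1000 counts. Without 2'-FL replicate 2 these were -0.086 and -0.056, and without both libraries -0.046 and -0.050. In 2'-FL replicate 2 the members lay a median of 0.14 below their own mean over libraries (log2), and 19 of the 47 were lowest there, where 24.4% of all tested genes were lowest.

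**Figure D2:**
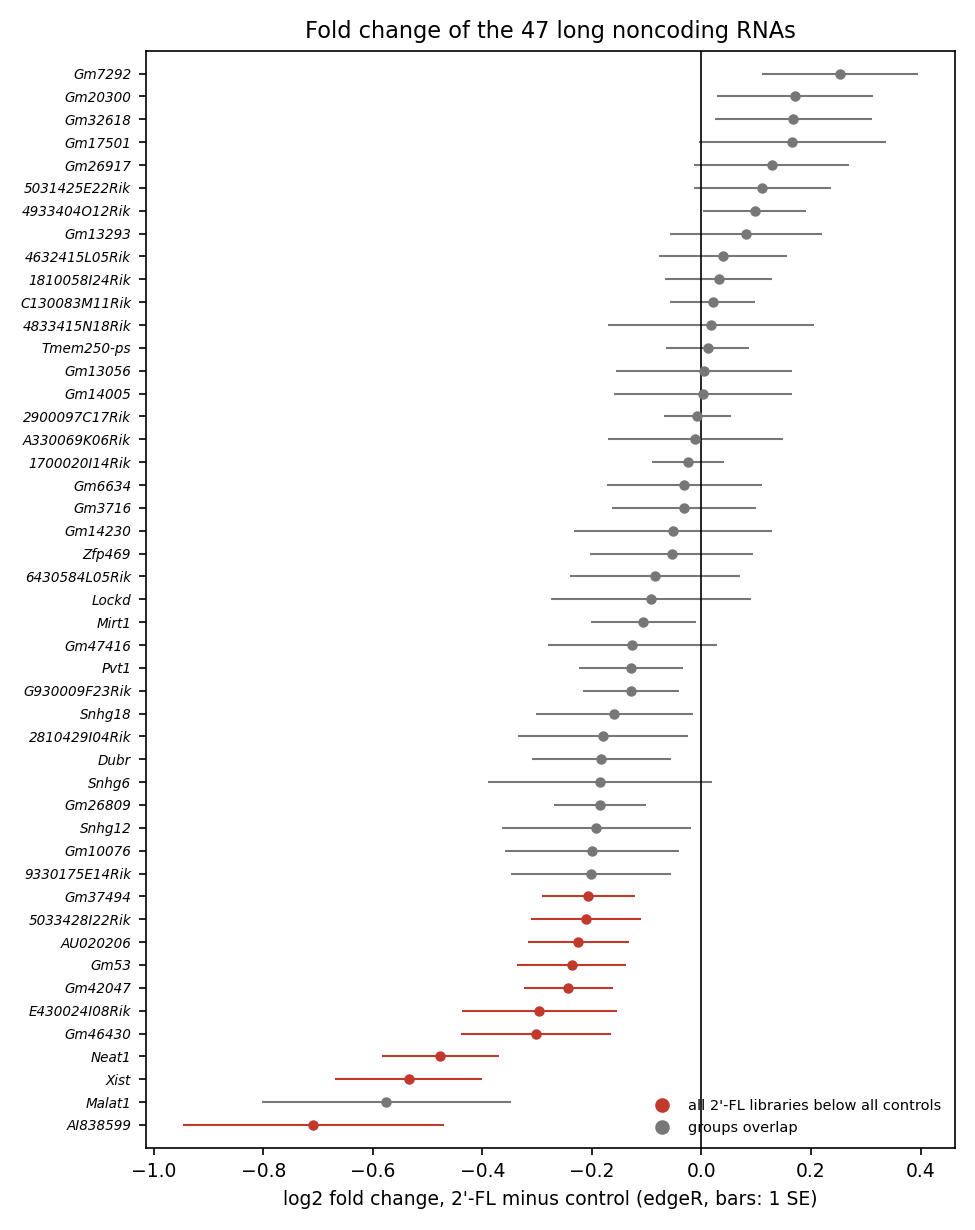
Log2 fold change of each of the 47 members (2'-FL minus control, edgeR, bars 1 SE), ordered by value. In the 10 red genes all 2'-FL libraries lay below all controls, the grey genes overlapped, and the values run from -0.71 for AI838599 to 0.25 for Gm7292.

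AI838599 (chromosome 4, 3242055 to 3258092, plus strand) had the most negative log2 fold change. It held 7.85, 3.21 and 7.56 CPM after 2'-FL, compared with 9.70, 10.8 and 9.80 CPM in controls. The groups did not overlap, and 2'-FL replicate 2 was well below the other libraries. The log2 fold change was -0.71 ± 0.24 (edgeR unadjusted p = 0.00966, adjusted p = 0.496), and -0.39 without 2'-FL replicate 2.

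Among the other members with small p, Gm37494 (chromosome 7) was the most even within groups. It held 23.6, 22.0 and 23.8 CPM in 2'-FL replicates 1 to 3 and 27.8, 26.5 and 26.2 CPM in control replicates 1 to 3, without overlap (-0.21 ± 0.09, unadjusted p = 0.0293). Gm53, which lies 6589 bases from Hoxb9 in the HoxB cluster, held 20.0, 17.9 and 20.6 CPM in the 2'-FL libraries against 24.9, 21.6 and 22.8 CPM in the controls (-0.24 ± 0.10, unadjusted p = 0.0307). These groups did not overlap either, and neither gene passed after adjustment (edgeR adjusted p = 0.58 and 0.582). Hoxb9 itself had a log2 fold change of 0.07 ± 0.08.

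Gm46430 and E430024I08Rik lie within the same region of chromosome 13 and share exon sequence with each other and with Zfp825. Gm46430 held 17.5, 11.7 and 17.1 CPM after 2'-FL, compared with 17.9, 18.3 and 20.99 CPM in controls (-0.30 ± 0.14). E430024I08Rik held 9.13, 8.24 and 9.41 CPM in 2'-FL replicates 1 to 3 and 10.3, 9.83 and 13.0 CPM in control replicates 1 to 3 (-0.30 ± 0.14). In both, the groups did not overlap and their edgeR adjusted p were 0.616 and 0.642. Because of the shared sequence they are not independent measurements.

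AU020206 on chromosome 7 held 33.4, 30.9 and 39.9 CPM in the 2'-FL libraries against 39.5, 42.8 and 40.0 CPM in the controls (-0.22 ± 0.09, edgeR adjusted p = 0.572). By library totals its groups overlapped, and with TMM scaling they did not. Gm26809 on chromosome 6 held 139, 105 and 116 CPM after 2'-FL, compared with 131, 145 and 137 CPM in controls, which overlap (-0.19 ± 0.08, edgeR adjusted p = 0.62). It shared 18.3% of its windows with other genes, and 28.7% of its exon sequence lies across from Gm20186 on the other strand. 5033428I22Rik, 7485 bases downstream of Hand2, held 17.3, 16.1 and 16.4 CPM in 2'-FL replicates 1 to 3 and 20.0, 20.3 and 17.8 CPM in control replicates 1 to 3 without overlap (-0.21 ± 0.10). Hand2, a transcription factor of mesenchyme, averaged 68.2 CPM over all libraries with a log2 fold change of -0.12 ± 0.12.

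On the positive side, no member's groups separated. After Gm7292 the largest log2 fold changes were 0.17 ± 0.14 for Gm20300, 0.17 ± 0.14 for Gm32618, 0.17 ± 0.17 for Gm17501 and 0.13 ± 0.14 for Gm26917. Gm17501 starts 331 bases from Ccn1, on the other strand. Ccn1, a secreted matrix protein known as Cyr61, had a log2 fold change of 0.28 ± 0.09 (edgeR unadjusted p = 0.00634, adjusted p = 0.469).

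The snoRNA host genes with the lincRNA biotype and enough counts were Snhg6, Snhg12 and Snhg18, and all overlapped between groups. Snhg6 held 13.6, 6.85 and 14.2 CPM in the 2'-FL libraries against 11.6, 14.9 and 12.8 CPM in the controls (-0.18 ± 0.20). Its exons overlap those of Mcmdc2 on the other strand by 11.1%. Snhg12 held 11.3, 8.59 and 14.4 CPM after 2'-FL, compared with 13.6, 14.95 and 10.5 CPM in controls (-0.19 ± 0.17). Snhg18 held 10.3, 9.58 and 7.96 CPM in 2'-FL replicates 1 to 3 and 9.20, 11.7 and 10.5 CPM in control replicates 1 to 3 (-0.16 ± 0.14). In Snhg6 and Snhg12 the lowest library was 2'-FL replicate 2.

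Most of the better counted snoRNA hosts carry the biotype processed transcript and so lie outside the 47. Of 22 listed hosts in the files 20 were tested. Of these 17 were lower and 3 higher, beside 51.6% lower among all genes tested, and none was called. Their median log2 fold change was -0.19. Whether each listed gene carries a snoRNA was not checked. The list holds Mir17hg, which is also on the list of microRNA hosts, and 1810026B05Rik. Both were lower, and both were lowest in 2'-FL replicate 2. In 15 of the 20 the lowest library was 2'-FL replicate 2, where 24.4% of all tested genes were lowest. In that library the hosts lay a median of 0.45 below their own mean (log2). In the other libraries that median ran from -0.067 to 0.14. Genes of ribosomal proteins lay a median of 0.23 below in the same library (76 genes). Without 2'-FL replicate 2 the hosts' median log2 fold change was -0.080, with 15 lower, and without control replicate 1 as well it was -0.057, with 14 lower.

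Zfas1 had the smallest p of the hosts, with 16.9, 8.67 and 18.2 CPM in the 2'-FL libraries against 19.4, 24.2 and 19.001 CPM in the controls (-0.52 ± 0.20, edgeR unadjusted p = 0.019, adjusted p = 0.545). Next was Snhg15 (-0.32 ± 0.15, unadjusted p = 0.0439). Gas5, a host whose spliced RNA is degraded while it is translated, held 51.9, 37.9 and 48.1 CPM after 2'-FL, compared with 50.6, 50.2 and 50.8 CPM in controls, which were nearly equal (-0.13 ± 0.10). Snhg1 held 33.9, 21.1 and 32.9 CPM in 2'-FL replicates 1 to 3 and 36.3, 37.0 and 30.2 CPM in control replicates 1 to 3 (-0.23 ± 0.14).

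Genes that act on the hosts' products were also counted. Of 17 snoRNP protein and assembly genes, 6 were lower and 11 higher, with a median of 0.033 and none called. Znhit3 at -0.28 ± 0.12 (unadjusted p = 0.0371) and Rrp9 at 0.21 ± 0.10 (unadjusted p = 0.0483) had the smallest p. Of 15 factors of nonsense-mediated decay, which removes many spliced host RNAs, 5 were lower and 10 higher, with a median of 0.045 and none called. Smg1, the kinase of that pathway, had a log2 fold change of -0.36 ± 0.10 (edgeR unadjusted p = 0.00258, adjusted p = 0.366) and Smg6 at -0.13 ± 0.07 (unadjusted p = 0.107).

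**Figure D3:**
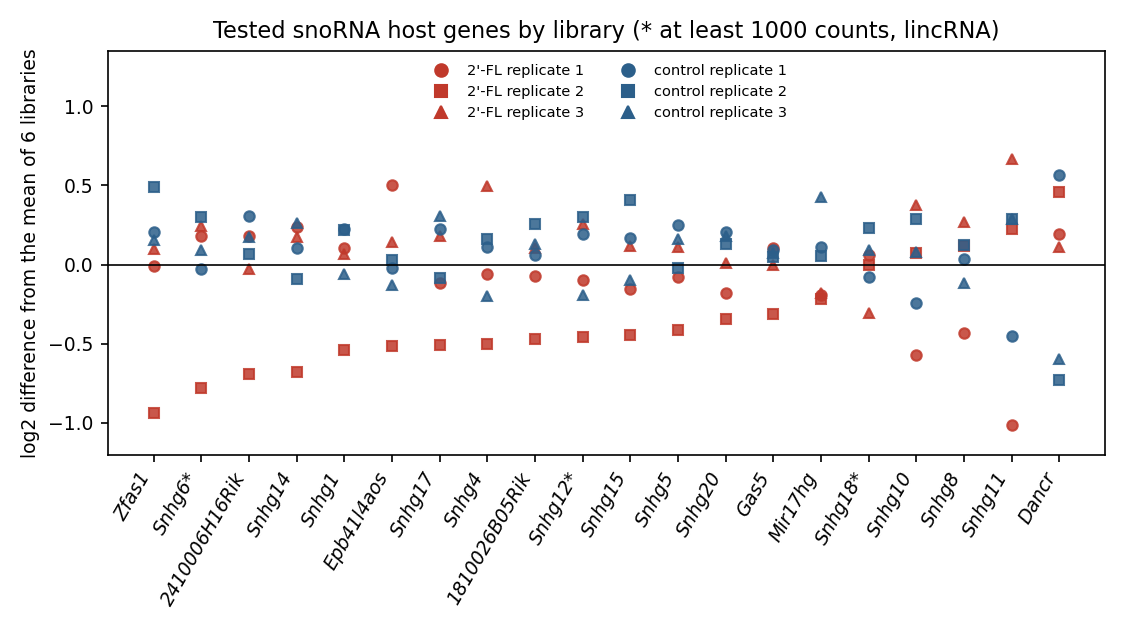
Log2 difference of each library from the mean of all 6, for the 20 tested genes of the snoRNA host list, ordered by 2'-FL replicate 2 (red squares). Mir17hg and 1810026B05Rik are included. In 15 genes this library is the lowest, down to -0.94 in Zfas1, against 24.4% of all tested genes. The other libraries of both groups mix.

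Imprinted noncoding RNAs gave no member. H19, a maternally expressed growth-related RNA, held 0.515, 0.198 and 0.150 CPM in the 2'-FL libraries against 0.25, 0.380 and 0.298 CPM in the controls, 39 counts in all. Meg3 had 10 counts and Rian 13 over all libraries, and Mirg was listed at 0. These come from the Dlk1-Dio3 domain, and at such depth a difference between groups was not detectable. Of 12 genes of the imprinted list in the files 6 were tested and all had negative log2 fold changes, with a median of -0.17. Whether each listed gene is imprinted was not checked. Mir124-2hg, by its name a microRNA host, is on the list and was not tested. Among the tested ones Zrsr1 and Mcts2 have the biotype protein coding. Kcnq1ot1 and Snhg14 were positive under at least 1 alternative. Airn, which silences Igf2r and has the biotype antisense, held 9.13, 8.67 and 10.1 CPM after 2'-FL, compared with 13.4, 12.2 and 10.8 CPM in controls without overlap (-0.38 ± 0.13, edgeR unadjusted p = 0.0118, adjusted p = 0.503). Next by p was Mcts2 (-0.26 ± 0.18, unadjusted p = 0.17).

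The members on the list of microRNA hosts were Pvt1 and Mirt1. No annotated gene overlaps the exons of Mirt1 on the same strand, and whether Mirt1 hosts a microRNA was not checked. Pvt1, 47612 bases downstream of Myc, held 24.01, 20.2 and 22.2 CPM in 2'-FL replicates 1 to 3 and 24.3, 23.1 and 25.5 CPM in control replicates 1 to 3 (-0.13 ± 0.09). Myc had a log2 fold change of 0.05 ± 0.08. Mirt1 held 36.0, 28.9 and 38.5 CPM in the 2'-FL libraries against 37.5, 38.5 and 35.8 CPM in the controls (-0.11 ± 0.10). Both overlapped between groups. Of 9 tested genes of that list, 7 were lower and 2 higher, with none called. Their median of -0.11 was the value of Mirt1. Of 8 tested RNAs of growth control and the p53 response, Pvt1, Neat1 and 2900097C17Rik being the members among them, 6 were lower and 2 higher, with a median of -0.090 and none called.

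Members were set beside their nearest protein-coding gene, since many long noncoding RNAs share a promoter with one. Of the 47, 5 overlapped a coding gene's span. Within 1000 bases of one lay 10, those 5 included, and 25 lay more than 10000 bases away. In 37 pairs both genes were tested, and 21 had the same sign. Across these 37 genes the log2 fold changes had a Pearson r of 0.021 and a Spearman rho of 0.14, as a description of genes that share the same libraries. Snhg18 and Sema5a start 148 bases apart on opposite strands, with log2 fold changes of -0.16 ± 0.14 and 0.33 ± 0.29. 5031425E22Rik and Kmt2e lie 172 bases apart, with log2 fold changes of 0.11 ± 0.12 and -0.10 ± 0.07. Gm14230 and Tgif2 lie 115 bases apart, with -0.05 ± 0.18 and -0.27 ± 0.27.

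Other members lie near genes with a known role. Lockd, 3579 bases downstream of the cell cycle inhibitor gene Cdkn1b, had a log2 fold change of -0.09 ± 0.18 and Cdkn1b one of -0.12 ± 0.07. The values were 0.0027 ± 0.16 for Gm14005, known as Morrbid, and 0.02 ± 0.10 for its neighbour Bcl2l11, a gene of cell death that Morrbid is known to restrain. 9330175E14Rik overlaps Nlrc5, the activator of MHC class I genes, on the other strand, with log2 fold changes of -0.20 ± 0.15 and -0.07 ± 0.09. Exons of 14 members overlapped exons of a gene on the opposite strand, and as strand use in counting is not given, reads there cannot be assigned with certainty.

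The spread between libraries depended on the level and on a few genes. The median CV within groups, on TMM-scaled CPM, was 11.9% for the members and 8.85% for all genes tested. Below 20 CPM it was 13.4% for 28 members and 10.7% for all tested genes down to the lowest member's level. Between 20 and 100 CPM it was 6.99% for 12 members and 6.68% for all genes of that level. Above 100 CPM it was 9.92% for 7 members and 5.30% for all. The largest were 33.5% for Malat1, 29.3% for AI838599, 25.6% for Snhg6, 23.96% for Gm10076 and 21.3% for 4833415N18Rik. Counting alone would give 0.968% for Malat1 and 0.783% for Xist, whose CV was 18.6%, against 6.17% for Snhg6 and 7.62% for AI838599.

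**Figure D4:**
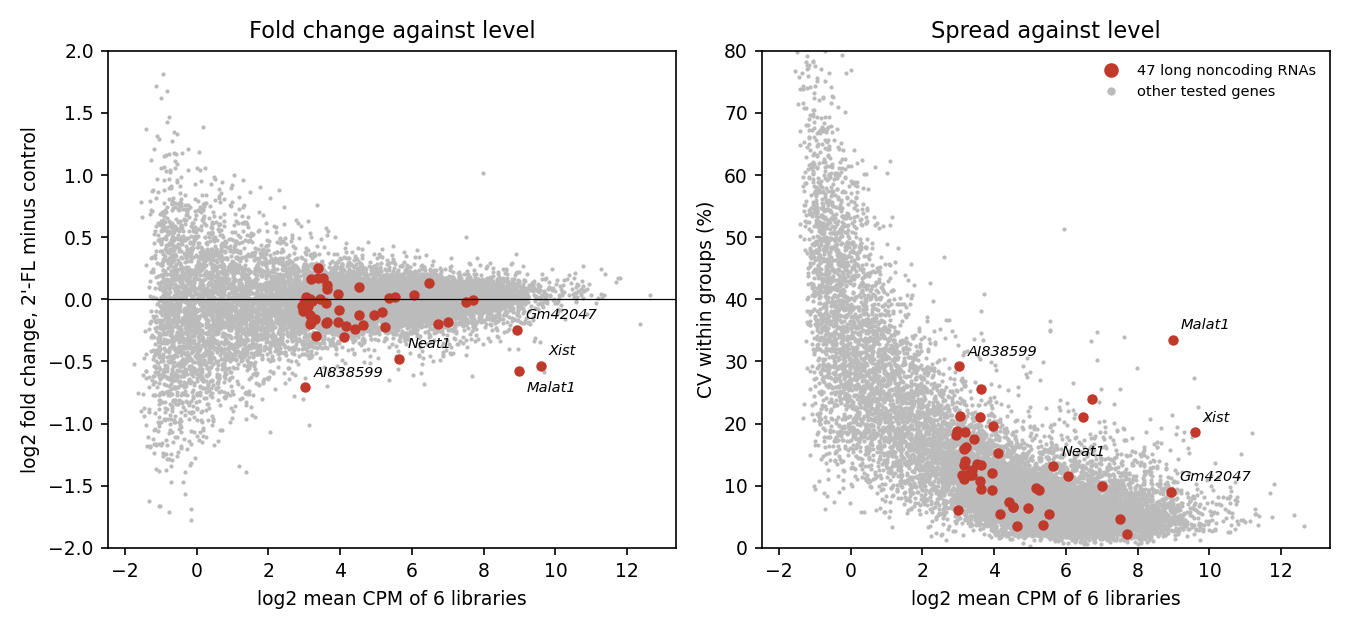
Log2 fold change (left) and CV within groups (right) against log2 mean CPM, with the 47 members in red and the other tested genes in grey. Xist, Malat1 and Neat1 lie below most genes of their level on the left, and Malat1 (33.5%) and Xist (18.6%) lie above most on the right. The left axis leaves out 1 gene and the right axis 39, none of them members.

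Together the 47 members took 0.291%, 0.251% and 0.315% of all counts after 2'-FL, compared with 0.389%, 0.348% and 0.317% in the controls. The groups did not overlap, and 2'-FL replicate 3 lay just below control replicate 3. Xist, Malat1 and Gm42047 made up 0.148 ± 0.026% of counts after 2'-FL, against 0.205 ± 0.036% in the controls (± SD over 3 libraries). The other members together took 0.138 ± 0.0092% and 0.147 ± 0.0014%. No test was made of these sums.

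At the lower bound of the selection the members Gm14230, Lockd and Gm6634 had 1004, 1014 and 1021 counts. Just outside lay 3110039M20Rik, Gm26617 and D930016D06Rik, with 991, 927 and 910 counts. The members there averaged 7.68, 7.87 and 7.90 CPM, with log2 fold changes of -0.05 ± 0.18, -0.09 ± 0.18 and -0.03 ± 0.14. The genes outside had log2 fold changes of -0.11 ± 0.15, 0.04 ± 0.15 and -0.13 ± 0.20.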

How the data were processed

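RNA-seq was analysed from 6 libraries of YAMC cells, 3 with 2'-FL and 3 controls. The extraction used a Qiagen RNeasy mini kit and the library preparation a NEBNext Ultra II kit, per the labels' protocols. The values the authors deposited are raw read counts per gene, with the gene's length, position and biotype. GRCh38, bcl2fastq, Bowtie2 (2.7.3a) and FastQC (0.11.9) are named in the submitters' processing notes. The identifiers are mouse, and 98.3% of those found in GENCODE (GRCm38) have the same start and end. The RNA selection, counting program and strand use were all not given in the sources used here.

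Counts were fitted with edgeR 4.0.16 in R 4.3.3 (filterByExpr, minimum count 10, TMM, quasi-likelihood F-test, no robust estimation), with Benjamini-Hochberg adjustment over 14129 genes and a threshold of 0.05. All 47 members passed the filter. Printed levels are CPM of the library total, and overlap and CV use TMM-scaled CPM. The SE of a fold change is its size over the root of its F statistic. The fit was checked on simulated counts. Shared sequence was counted as exact 50-base windows of annotated exons, and promoters came from RefSeq.

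The members and gene lists were chosen with earlier results of these data known. Lists covered nuclear body, imprinted, X-inactivation, snoRNA host, microRNA host, growth control, positional and immune RNAs, proteins acting with them, and markers of cell types. Named genes are the 12 members highest by CPM and by CPM per kilobase, members in those lists, the 5 largest changes each way, the 10 smallest p, the 5 largest CVs and those at the bound. Others were named after their values were seen (E430024I08Rik, 5033428I22Rik, members beside known genes, and genes outside the 47). Alternatives were other scalings, no filter, at least 1 CPM in 3 libraries, DESeq2 1.42.0, limma-voom (limma 3.58.1), a replicate block, robust estimation and each library left out. Leaving out both libraries that stood apart was added after seeing the data. Values of some genes that these rules name are not reported here.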

Additional observations from a re-analysis of the deposited data

How the results depend on the processing

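With edgeR and adjustment over all genes, 0 genes passed, 1116 had an unadjusted p under 0.05, and 0 members passed. The other counts over all genes were 158 without a filter, 37 by DESeq2, 5 with robust estimation and 1 with the replicate block, and 0 with the other scalings, the stricter filter and limma-voom. Leaving out 1 library at a time gave between 0 and 28 genes, with 21 without 2'-FL replicate 1 and 28 without control replicate 2, and 0 members each time. Members called were 4 without a filter and 1 by DESeq2. The members' median log2 fold change of -0.092 ranged from -0.133 to -0.030 with 1 library left out, and was -0.112 with the replicate block and -0.019 without 2'-FL replicate 2 and control replicate 1. The cause was not tested. The median CV was 12.4% on CPM of the library total. Deviations of same-numbered libraries from their group means correlated at -0.12, -0.068 and -0.051. Those of differently numbered libraries correlated at -0.048 to 0.11. The labels do not say whether equal numbers mark a shared day or culture, so pairing is not known.

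Of the 31 named members, 15 kept one sign under all 15 alternatives and 16 changed sign in at least 1 without a call. Counting alone gives a CV of 7.73% at Gm14230, the member with the fewest counts. Shared sequence limits Gm10076, Gm42047 and Gm7292 at any depth. The same holds in part for 2900097C17Rik (39.5% of windows shared with a gene elsewhere), Gm26809 (18.3%) and Gm46430 (12.3%).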

Other observations

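Lists of positional and immune noncoding RNAs held no member of the 47, and no gene of them passed by edgeR. Of 10 tested positional RNAs, 9 were lower and 1 higher with 2'-FL, with a median log2 fold change of -0.17. Fendrr, a noncoding neighbour of Foxf1 that marks mesenchyme, held 3.86, 3.9998 and 5.11 CPM after 2'-FL, compared with 7.20, 5.27 and 7.16 CPM in controls without overlap (-0.59 ± 0.20, edgeR unadjusted p = 0.0085, adjusted p = 0.49). Tug1, a widely expressed nuclear RNA annotated as antisense, held 132 to 136 CPM after 2'-FL against 132 to 147 CPM in the controls (-0.05 ± 0.06).

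Of 5 tested immune noncoding RNAs, 4 were lower and 1 higher, with a median of -0.17. Gm20559 averaged 41.8 CPM after 2'-FL against 56.2 CPM in the controls, without overlap (-0.42 ± 0.10, edgeR unadjusted p = 0.000611, adjusted p = 0.216). The DESeq2 Wald test called it, at an adjusted p of 0.0389, and over all alternatives the adjusted p ran from 0.00109 to 0.91. Ptgs2os, the neighbour of Ptgs2 on the opposite strand, averaged 2.54 and 4.08 CPM (-0.69 ± 0.23, unadjusted p = 0.0106). Its groups did not overlap either.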
